A study of Mus musculus with 9 samples.

Results

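This account concerns 10 genes for inflammatory and regulatory cytokines in cultured mouse microglia, the resident immune cells of the brain. They were taken by name, as Tnf, Il1a, Il1b, Il6, Il10, Il12b, Il1rn, Il18, Il27 and Tgfb1, and the counts of all Ensembl transcripts of each gene were summed. They are 10 of 54119 genes in the table, and all 10 were among the 16229 genes that passed the filter on low counts. RNA-seq was performed on 9 libraries from primary microglia of C57BL/6J mice, 3 each after transfection with control siRNA, Chd8 siRNA, or Tsc2 siRNA, short double-stranded RNAs that lower the mRNA they match. Chd8 encodes a chromatin remodeler and Tsc2 an inhibitor of mTORC1 signaling, and both genes are associated with autism spectrum disorders. The cells were shaken off mixed glial cultures of late embryonic whole brains, and each biological replicate was a culture from a separate brain. No group was left untransfected, and the labels name no stimulus, while the text of the study places the RNA-seq after lipopolysaccharide (LPS), a bacterial cell wall component. The libraries carried the replicate numbers 1, 2 and 3 in each group, and the sources used here do not say whether libraries with the same number came from one culture.

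Microglia that sense bacterial products or tissue damage switch on cytokine genes within hours, largely through the transcription factors NF-kappaB and AP-1 acting with C/EBP proteins. TNF, IL-1 alpha, IL-1 beta and IL-6 carry the inflammatory signal, and the IL-12 family links it to T cells. IL-10, TGF-beta 1 and the IL-1 receptor antagonist restrain it, so the balance between both kinds of gene is a common description of the state of microglia.

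Total counts were between 16913005 and 33213477 per library, and 3 counts corresponded to between 0.0903 and 0.177 CPM (counts scaled to a common library size), which covers counting error only. Chd8 was at 86.8, 44.6 and 38.2 CPM in the Chd8 siRNA libraries against 118, 97.5 and 93.6 in control siRNA, and Tsc2 was at 24.6, 30.6 and 36.4 CPM in the Tsc2 siRNA libraries against 40.8, 39.9 and 38.9. Each targeted gene was thus lower in its own 3 libraries, with no overlap with control siRNA (two-sided exact permutation test, p = 0.1, the smallest possible with 3 libraries against 3). Groups did not overlap for 9.07% of all genes tested in Chd8 siRNA and 8.13% in Tsc2 siRNA. With the replicate number as a block, Chd8 passed the edgeR test in Chd8 siRNA (log2 fold change −0.93, adjusted p = 0.00781). Tsc2 did not pass in Tsc2 siRNA (−0.39, adjusted p = 0.219), and neither gene passed without the block. Tsc2 was at 0.602, 0.768 and 0.937 of the control siRNA library of the same number. Of the 12 microglia markers, 11 passed the filter, with summed levels between 2613 and 3456 CPM. Tmem119 was at most 1.11 CPM and P2ry12 at most 2.78 CPM, while Itgam, Csf1r and C1qa were at 253 CPM or more in every library. The summed astrocyte markers were between 12 and 106 CPM, the neuron markers between 2.91 and 19.2 CPM, and the fibroblast and mural cell markers between 8.16 and 64.8 CPM. In total RNA, a smaller share of a cell type and less RNA per cell of that type cannot be told apart.

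The level of the cytokine genes followed the replicate number more closely than the siRNA. In a test of the replicate number with the siRNA groups in the fit, 9 of the 10 genes passed an FDR of 0.05 with a difference of at least 1.5-fold between some pair of numbers, against 17.3% of all genes tested (edgeR quasi-likelihood F test, Benjamini-Hochberg adjusted over all genes). Of these, 7 inflammatory or T cell-directing genes were higher in the libraries numbered 2 and 3 than in those numbered 1. Il10 and Il1rn, which restrain inflammation, were lower there. For all 10 genes, the 3 libraries numbered 1 did not overlap the other 6, which held for 18.9% of all genes tested. In 7 of the 10 the libraries numbered 1 were below the others (9.24% of all genes) and in 3 above (9.67%). Il1a, Il6 and Il12b were at least 4-fold higher at both numbers 2 and 3 than at number 1, that is 3 of the 10 against 2.29% of all genes that differed this much in either direction. This test was chosen after the values were seen. Within a group the replicates were cultures from separate brains, and no source used here says whether a number stands for the same culture across groups. If it does, the standard errors and the test do not measure the spread between cultures.

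**Figure D1:**
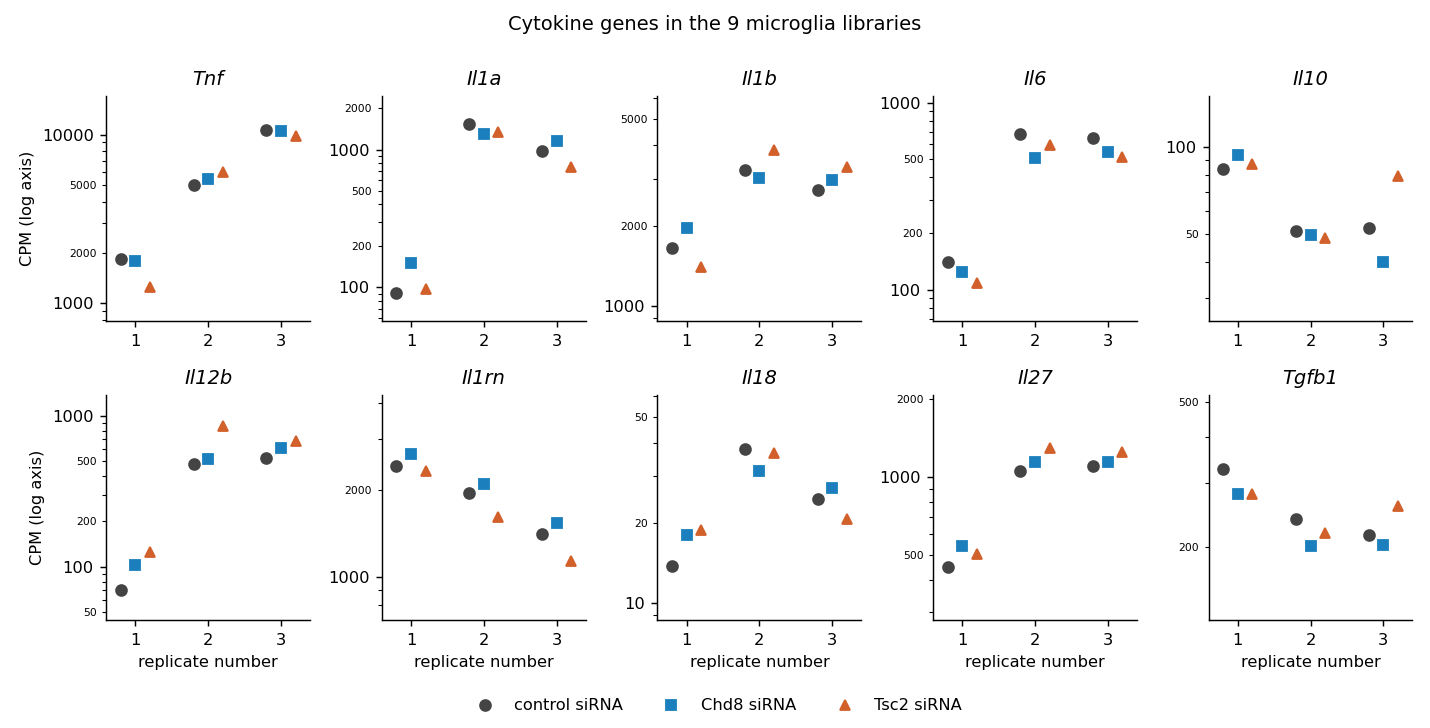
Normalized level of each of the 10 cytokine genes (CPM, log axis, a separate scale per gene) by replicate number, with 1 point per library: circles for control siRNA, squares for Chd8 siRNA and triangles for Tsc2 siRNA. The 3 points at number 1 sit apart from the other 6 in every panel, below them for 7 genes and above them for Il10, Il1rn and Tgfb1.

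Among the early inflammatory cytokines, Tnf encodes tumor necrosis factor, which activates endothelium and glia through its receptors. Tnf was at 1829, 5028 and 10642 CPM in the control siRNA libraries 1 to 3, at 1794, 5430 and 10562 in Chd8 siRNA, and at 1255, 5983 and 9841 in Tsc2 siRNA. Number 2 exceeded number 1 by 1.77 (SE 0.10) and number 3 exceeded number 2 by 0.91 (SE 0.10) on the log2 scale, so that Tnf was lowest at number 1 and highest at number 3 in every group. Il1a encodes IL-1 alpha, which is active without cleavage and can act as an alarm signal from damaged cells. It was at 90.8, 1544 and 984 CPM in control siRNA, at 151, 1289 and 1152 in Chd8 siRNA, and at 96.6, 1351 and 745 in Tsc2 siRNA. The difference of Il1a between numbers 2 and 1, 3.66 (SE 0.15) on the log2 scale, was the largest among the 10 genes.

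Il1b encodes IL-1 beta, which is released after cleavage by caspase-1. Il1b was at 1645, 3243 and 2724 CPM in control siRNA, at 1953, 3022 and 2954 in Chd8 siRNA, and at 1400, 3841 and 3316 in Tsc2 siRNA, and number 2 exceeded number 1 by 1.01 (SE 0.11) on the log2 scale. Il6 encodes IL-6, which signals through gp130. It was at 141, 682 and 649 CPM in control siRNA, at 124, 509 and 546 in Chd8 siRNA, and at 108, 595 and 514 in Tsc2 siRNA, so that all 3 libraries numbered 1 were at most 141 CPM and the other 6 at least 509 CPM. Il18, for a cytokine that is also activated by caspase-1, lay between 13.8 and 37.7 CPM, with number 2 above number 1 by 1.06 (SE 0.15) and number 3 by 0.51 (SE 0.15) on the log2 scale.

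Il12b encodes p40, the subunit shared by IL-12 and IL-23. Il12b was at 70.8, 479 and 527 CPM in control siRNA, at 104, 515 and 616 in Chd8 siRNA, and at 126, 862 and 682 in Tsc2 siRNA. Numbers 2 and 3 exceeded number 1 by 2.62 (SE 0.11) and 2.63 (SE 0.11) on the log2 scale, and did not differ from each other beyond the error (0.02, SE 0.10). Il27 encodes p28 of IL-27, and was at 447, 1051 and 1098 CPM in control siRNA, at 540, 1143 and 1140 in Chd8 siRNA, and at 504, 1294 and 1250 in Tsc2 siRNA. Its differences from number 1 were smaller than those of Il12b, at 1.22 (SE 0.07) and 1.23 (SE 0.07).

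The genes that restrain inflammation went the other way. Il1rn encodes the IL-1 receptor antagonist, which occupies the IL-1 receptor without signaling. It was at 2411, 1945 and 1406 CPM in control siRNA, at 2664, 2102 and 1535 in Chd8 siRNA, and at 2329, 1610 and 1136 in Tsc2 siRNA. In every group it was highest in the library numbered 1 and lowest in the library numbered 3, and number 3 differed from number 1 by −0.87 (SE 0.06) on the log2 scale. Il10, for the anti-inflammatory cytokine IL-10, was at 83.7, 51.0 and 52.7 CPM in control siRNA, at 93.9, 49.7 and 40.0 in Chd8 siRNA, and at 87.2, 48.6 and 79.2 in Tsc2 siRNA. Numbers 2 and 3 differed from number 1 by −0.83 (SE 0.16) and −0.66 (SE 0.16) on the log2 scale, although the Tsc2 siRNA library numbered 3 was close to the libraries numbered 1. Tgfb1, for TGF-beta 1, which keeps microglia in their resting identity, ranged from 201 to 327 CPM, and its differences of −0.43 (SE 0.09) and −0.39 (SE 0.09) passed the FDR (adjusted p = 0.00249, edgeR) but not 1.5-fold.

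**Figure D2:**
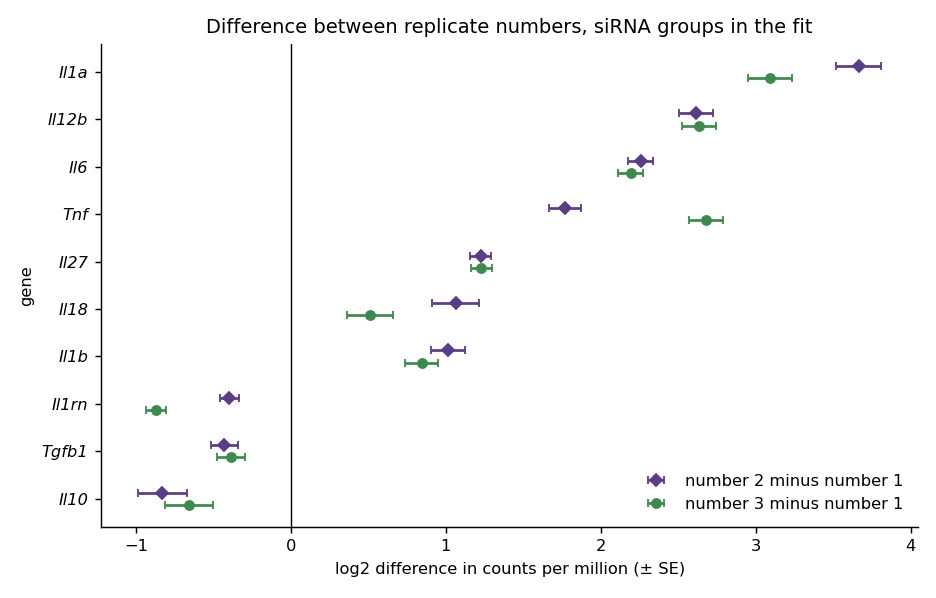
Log2 difference of each cytokine gene between replicate numbers in the edgeR fit that also holds the siRNA groups, with diamonds for number 2 minus number 1 and circles for number 3 minus number 1. Bars are standard errors, and the 10 genes run from −0.87 for Il1rn to 3.66 for Il1a.

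The sequence before the start site is shown for 5 genes that were higher at numbers 2 and 3 than at number 1 (Tnf, Il1a, Il1b, Il6 and Il12b) and for Il1rn, which was lower, so that both directions can be compared. Each run is the 250 bases before the start site in RefSeq, 5′ to 3′ on the strand of the gene, in build GRCm38.p6. RefSeq entries were matched for 8 of the 10 genes, not for Il10 and Il27. The windows are chr17:35202008-35202257 for Tnf, chr2:129309973-129310222 for Il1a and chr2:129371140-129371389 for Il1b on the minus strand, and chr5:30012864-30013113 for Il6, chr11:44399813-44400062 for Il12b and chr2:24336610-24336859 for the first of 3 Il1rn entries on the plus strand. Capitals mark matches on either strand to TATAAA, to GGG and CC with any 5 bases between them, a loose form of the NF-kappaB site, to TTNNGNAA, a loose form of the C/EBP site, and to TGANTCA, the AP-1 site, and neighbouring matches can overlap.
Tnf: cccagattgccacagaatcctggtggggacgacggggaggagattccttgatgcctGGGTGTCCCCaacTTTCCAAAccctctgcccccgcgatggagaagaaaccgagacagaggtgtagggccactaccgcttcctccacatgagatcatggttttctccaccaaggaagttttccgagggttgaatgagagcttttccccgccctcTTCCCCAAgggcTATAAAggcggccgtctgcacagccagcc
Il1a: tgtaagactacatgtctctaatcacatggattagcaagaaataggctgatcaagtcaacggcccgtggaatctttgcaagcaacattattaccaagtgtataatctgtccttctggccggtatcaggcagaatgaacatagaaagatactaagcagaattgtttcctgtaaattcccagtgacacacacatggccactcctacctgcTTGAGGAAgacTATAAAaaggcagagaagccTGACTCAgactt
Il1b: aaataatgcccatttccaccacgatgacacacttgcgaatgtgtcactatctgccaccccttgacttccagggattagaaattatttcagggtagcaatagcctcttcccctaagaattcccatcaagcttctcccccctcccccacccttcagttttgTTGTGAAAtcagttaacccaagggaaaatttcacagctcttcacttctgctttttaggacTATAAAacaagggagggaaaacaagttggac
Il6: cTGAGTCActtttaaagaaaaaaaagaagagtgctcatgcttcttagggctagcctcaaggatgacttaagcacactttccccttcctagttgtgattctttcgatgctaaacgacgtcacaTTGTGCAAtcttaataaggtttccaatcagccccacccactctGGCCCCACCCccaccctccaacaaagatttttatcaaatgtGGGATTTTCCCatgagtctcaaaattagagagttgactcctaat
Il12b: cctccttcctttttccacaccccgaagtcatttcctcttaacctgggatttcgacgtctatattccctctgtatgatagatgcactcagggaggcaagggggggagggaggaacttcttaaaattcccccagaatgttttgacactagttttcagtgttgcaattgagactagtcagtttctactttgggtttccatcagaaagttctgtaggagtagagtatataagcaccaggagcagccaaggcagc
Il1rn: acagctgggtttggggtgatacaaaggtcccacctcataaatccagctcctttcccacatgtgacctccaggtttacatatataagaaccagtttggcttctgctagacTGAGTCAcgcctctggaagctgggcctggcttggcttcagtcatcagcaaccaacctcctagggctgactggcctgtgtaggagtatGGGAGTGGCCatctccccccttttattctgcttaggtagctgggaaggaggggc

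TATAAA was found 29, 32 and 31 bases before the start of Tnf, Il1a and Il1b, and 12.4% of 32851 windows of the same length hold it. Of the windows shown, those of Tnf, Il6 and Il1rn hold the NF-kappaB letters, as do 45.8% of windows, and in Il6 it includes the letters GGGATTTTCC 44 bases before the start. The AP-1 letters were in the windows of Il1a, Il6 and Il1rn and in 6.75% of all windows, and the C/EBP letters were in those of Tnf, Il1a, Il1b and Il6 and in 36.8% of all windows. The Il12b window has none of these letters. For Il1rn the letters depended on the entry. Entry 2, not shown, holds the C/EBP letters and none of the others, and entry 3 holds the C/EBP and NF-kappaB letters but not the AP-1 letters. A match is a description of the letters only.

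Between genes, levels were compared as TPM, counts scaled by transcript length and library size and computed from the deposited counts. In control siRNA the order was Tnf at 1831 ± 1549 TPM, Il1b at 956 ± 273, Il1rn at 773 ± 188, Il27 at 424 ± 187, Il1a at 215 ± 171, Il6 at 213 ± 134, Il12b at 96.4 ± 69.8, Tgfb1 at 66.5 ± 15.8, Il10 at 23.9 ± 7.57 and Il18 at 14.4 ± 5.88 TPM (SD, n = 3). Most neighbours in this order overlapped between libraries, and the exceptions were Il27 below Il1rn and Il10 below Tgfb1. With the length of the most abundant transcript alone, Il1rn was at 491 TPM in control siRNA and overlapped Il27, and the other 9 genes moved by less than 1 SD. The order changed with the replicate number in all 3 groups. Il1rn ranked first, before Il1b and Tnf, in each library numbered 1, and Tnf ranked first in each library numbered 2 or 3. With the length of the most abundant transcript alone, Il1b ranked before Il1rn in Chd8 siRNA replicate 1. The ratio of Il1rn to Il1b in TPM averaged 1.57 over the libraries numbered 1, 0.617 over those numbered 2 and 0.496 over those numbered 3. With the length of the most abundant transcript alone it averaged 1.02, 0.390 and 0.314. The ratio of Tnf to Il10 averaged 14.8, 88.1 and 157.

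The comparison of Chd8 siRNA with control siRNA asks whether less Chd8 changes the cytokine output of microglia. No cytokine gene passed the test in this comparison. With the siRNA as the only factor, 0 of the 10 genes and 0% of all genes tested passed an FDR of 0.05 and 1.5-fold (edgeR quasi-likelihood test), and 0 of the 10 and 3.83% of all genes had an unadjusted p under 0.05. By DESeq2, 9 genes were called in all, and none of the 10. Because libraries with the same number deviated together, the fit with the replicate number as a block is given beside it, and there 0 of the 10 genes against 0.530% of all genes were called (0.246% higher and 0.283% lower), and 4 of the 10 against 12.9% had an unadjusted p under 0.05. The groups overlapped for all 10 genes, whereas 9.07% of all genes did not overlap. The median log2 fold change of the 10 genes was 0.01 without and 0.09 with the block, beside −0.02 in both for all genes tested.

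Il6 was lower than in the control siRNA library of the same number at 3 of 3 numbers, at 0.881, 0.746 and 0.840 of its level. The log2 fold change was −0.32 (SE 0.74) without the block and −0.28 (SE 0.08, adjusted p = 0.104, edgeR) with it, so the difference did not pass the test. With DESeq2 and the block, Il6 passed the FDR in Chd8 siRNA (−0.27, adjusted p = 0.0228), under 1.5-fold. Tgfb1 was also lower at 3 of 3 numbers (with the block, −0.19, SE 0.09, adjusted p = 0.372, edgeR). Il12b was higher at 3 of 3, at 1.47, 1.08 and 1.17 times control siRNA (0.29, SE 0.10, adjusted p = 0.215, edgeR with the block), as were Il27 (0.15, SE 0.07) and Il1rn (0.13, SE 0.06). Of all genes tested, 36.0% differed in one direction at all 3 numbers, against 5 of these 10. For Tnf, Il1a, Il1b, Il10 and Il18, the direction differed between numbers, and Il1a was at 1.67, 0.835 and 1.17 times control siRNA.

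In Tsc2 siRNA, Il12b was higher than in control siRNA, by 1.61-fold in the fit with the replicate block. It was at 126, 862 and 682 CPM against 70.8, 479 and 527, that is at 1.79, 1.80 and 1.29 times the control siRNA library of the same number. The log2 fold change was 0.69 (SE 0.10, adjusted p = 0.00939, edgeR with the block), and without the block it was 0.63 (SE 0.85, adjusted p = 1.00, edgeR) and did not pass. The values of both groups overlapped as groups of 3, and the spread between numbers exceeded the difference between siRNAs. With the block, 1 of the 10 genes was called against 0.388% of all genes, and without it 0 of the 10 against 0%, with 0 of the 10 and 2.59% of all genes at an unadjusted p under 0.05. By DESeq2 without the block, 5 genes were called in all, and none of the 10.

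The call on Il12b was kept in 7 of 9 fits with the block that left out a library in turn. It was lost without control siRNA replicate 2 (log2 fold change 0.69, adjusted p = 0.0623, edgeR) and without Tsc2 siRNA replicate 2 (0.55, adjusted p = 0.0915, edgeR). With only the libraries numbered 2 and 3 and the block, Il12b was higher by 0.62 on the log2 scale (adjusted p = 0.0146, edgeR). Without the block, the value ran from 0.15 without control siRNA replicate 1 to 1.11 without Tsc2 siRNA replicate 1. Against control siRNA, the summed astrocyte markers were at 12, 27.4 and 51.0 CPM in Tsc2 siRNA and at 14.6, 24.8 and 106 CPM in control siRNA, and the summed microglia markers at 3263, 3204 and 3209 against 3250, 3068 and 2613 CPM. The summed fibroblast and mural cell markers were lower at 3 of 3 numbers, at 8.16, 23.8 and 46.1 CPM in Tsc2 siRNA against 11.2, 30.4 and 64.8 CPM, and so were the neuron markers, at 3.76, 4.26 and 5.83 against 4.56, 6.22 and 19.2 CPM. The oligodendrocyte lineage markers were also lower at 3 of 3 numbers, at 24.3, 24.5 and 11.8 against 24.5, 26.5 and 19.95 CPM, and the endothelial markers were higher at 3 of 3, at 52.2, 61.0 and 52.9 against 47.2, 51.5 and 49.1 CPM. The part of these markers in the difference was not tested.

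The other cytokine genes did not pass the test in Tsc2 siRNA. With the block, 4 of the 10 genes, against 10.7% of all genes, had an unadjusted p under 0.05, and these were Il12b, Il6, Il1rn and Il27. Il6 was again below control siRNA at 3 of 3 numbers, at 0.770, 0.872 and 0.792 of its level (−0.30, SE 0.08, adjusted p = 0.117, edgeR with the block), and with DESeq2 and the block it passed the FDR (adjusted p = 0.0241), under 1.5-fold. Il1rn was lower at 3 of 3 (−0.21, SE 0.06, adjusted p = 0.192, or 0.0202 without Tsc2 siRNA replicate 1) and Il27 higher at 3 of 3 (0.22, SE 0.07, adjusted p = 0.200). In all, 4 of the 10 genes and 31.9% of all genes differed in one direction at all 3 numbers, with Il12b and Il27 higher (15.6% of all genes) and Il6 and Il1rn lower (16.4%). Tnf was at 0.687, 1.19 and 0.925 times control siRNA, Il1b at 0.851, 1.18 and 1.22, and Il10 at 1.04, 0.953 and 1.503, with no common direction. The groups overlapped for all 10 genes, beside 8.13% of all genes that did not. The median log2 fold change of the 10 genes was −0.02 without and 0.0042 with the block, beside −0.02 and −0.01 for all genes tested. Both knockdowns were compared with the same 3 control siRNA libraries, so that a low or high control value enters both comparisons.

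**Figure D3:**
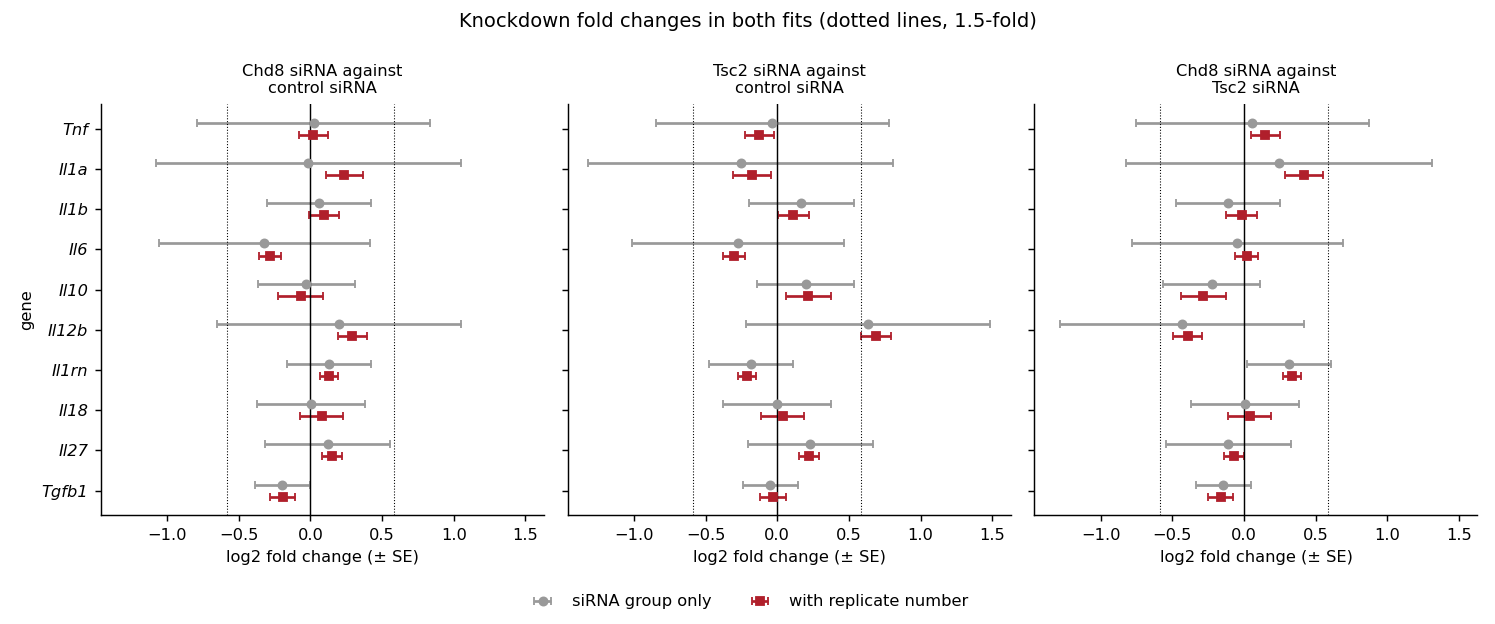
Log2 fold change of each cytokine gene in the 3 comparisons, with circles for the edgeR fit on the siRNA group alone and squares for the fit with the replicate number as a block. Bars are standard errors and dotted lines mark 1.5-fold. Only Il12b in Tsc2 siRNA, at 0.69, lies beyond 1.5-fold with the block.

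Chd8 siRNA and Tsc2 siRNA were also compared directly. The IL-1 receptor antagonist differed between them, since Il1rn was above control siRNA at 3 of 3 numbers in Chd8 siRNA (1.10, 1.08 and 1.09 times) and below it at 3 of 3 in Tsc2 siRNA (0.966, 0.828 and 0.808 times). The difference was 0.34 on the log2 scale (SE 0.06, adjusted p = 0.0291, edgeR with the block), which is 1.26-fold and under the 1.5-fold threshold. It was the 1 gene of the 10 that passed the FDR alone, as 0.376% of all genes did. Without the block it did not pass (0.31, SE 0.29, adjusted p = 1.00, edgeR). It passed the FDR in 3 of 9 fits with the block that left out a library, those without replicate 1 of a group, and the other 6 gave adjusted p values between 0.0568 and 0.297 (edgeR). No cytokine gene was called, with 0 of 10 against 0% of all genes without the block and 0 of 10 against 0.222% with it, 5 genes called in all by DESeq2, and 0 of 10 against 3.10% of all genes at an unadjusted p under 0.05 without the block. With the block, 3 of the 10 genes had an unadjusted p under 0.05, against 10.8% of all genes. These were Il1rn, Il12b (−0.39, SE 0.10, adjusted p = 0.130, or 0.0178 with DESeq2 and the block) and Il1a (0.42, SE 0.13, adjusted p = 0.228).

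Il1a was called in this comparison only without Chd8 siRNA replicate 2, at 0.64 on the log2 scale (adjusted p = 0.0452, edgeR with the block), and Il1a was at 1.57, 0.954 and 1.55 times Tsc2 siRNA at the 3 numbers. Il10 had its widest difference between knockdowns at number 3, at 0.506 times Tsc2 siRNA, with 1.08 and 1.02 times at the other numbers. The groups overlapped for all 10 genes, and 8.41% of all genes did not overlap. Il1rn was higher in Chd8 siRNA at all 3 numbers (16.2% of all genes) and Il12b lower (15.9%). The median log2 difference of the 10 genes was −0.08 without and 0.00077 with the block, beside 0.0047 and −8.3e-05 for all genes tested.

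**Figure D4:**
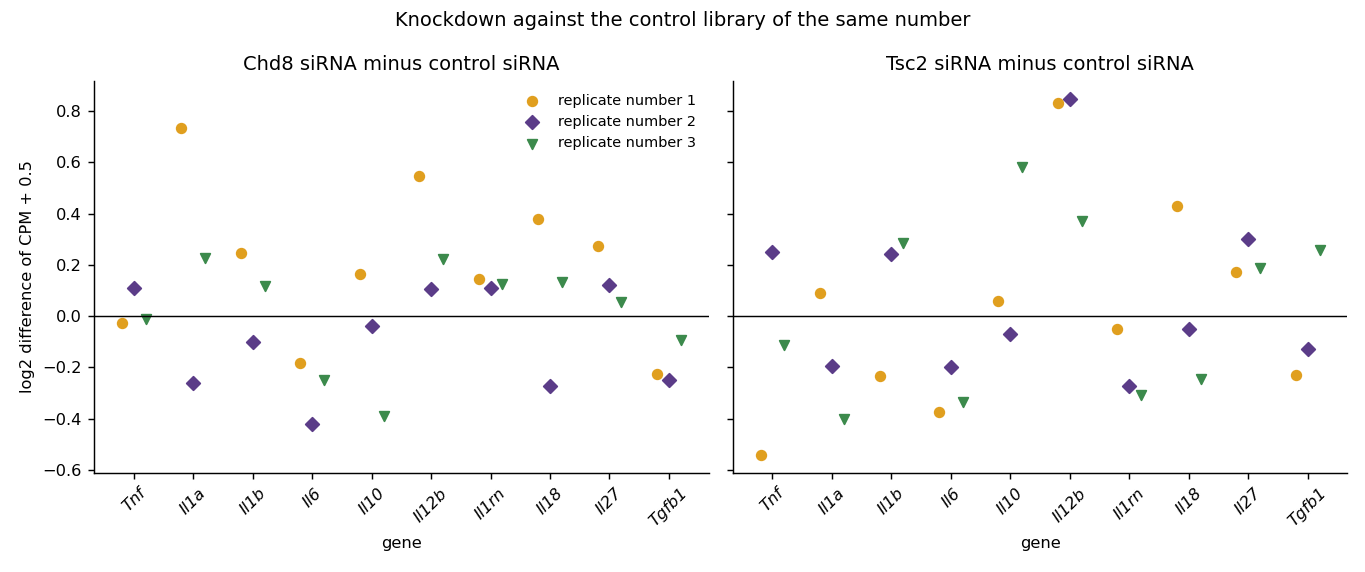
Log2 difference of each cytokine gene (CPM with 0.5 added) between a knockdown library and the control siRNA library of the same number, with circles, diamonds and triangles for numbers 1, 2 and 3. Il12b lies above 0 at all 3 numbers in both panels and Il6 below 0, and Il1rn is above 0 in the Chd8 siRNA panel and below 0 in the Tsc2 siRNA panel.

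Cytokines of the IL-12 family are pairs of subunits, so the partner genes are given beside Il12b and Il27. Il12a, for the p35 subunit of IL-12, was at 0, 0.493 and 0.0858 CPM in control siRNA and at most 0.293 CPM in the other groups, and did not pass the filter. Il23a, for the p19 subunit of IL-23, was at 0.264, 18.0 and 19.4 CPM in control siRNA, at 0.0670, 30.7 and 31.3 in Chd8 siRNA, and at 0.214, 25.4 and 17.2 in Tsc2 siRNA. It was near the counting floor in the libraries numbered 1 and well above it in the other 6, as Il12b was low and high in the same libraries. Il12a and Il23a were singled out after their values were seen. Ebi3 encodes the partner of p28 in IL-27, and was at 182, 217 and 178 CPM in control siRNA, at 215, 205 and 174 in Chd8 siRNA, and at 241, 323 and 277 in Tsc2 siRNA.

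Unlike Il27 itself, Ebi3 did not pass the test of the replicate number (adjusted p = 0.115, edgeR), while with the block it passed the FDR by siRNA. The 3 Tsc2 siRNA libraries lay above all 6 others. Of all genes tested, 8.13% did not overlap between Tsc2 siRNA and control siRNA, and 8.41% between the knockdowns. Ebi3 was higher in Tsc2 siRNA than in control siRNA by 0.54 on the log2 scale (SE 0.09, adjusted p = 0.0125, edgeR with the block), under 1.5-fold, and it differed between Chd8 siRNA and Tsc2 siRNA by −0.50 (SE 0.09, adjusted p = 0.0291, edgeR with the block), also under 1.5-fold. With the block and the libraries numbered 2 and 3 only, both differences passed 1.5-fold as well and were called, at 0.60 (adjusted p = 0.00222, edgeR) and −0.66 (adjusted p = 0.00172, edgeR). Without the block it did not pass in either (adjusted p = 1.00, edgeR), and with the block it lost the FDR against control siRNA without control siRNA replicates 2 or 3 or Tsc2 siRNA replicates 2 or 3, and between the knockdowns in 6 of 9 fits that left out a library. Clcf1, a ligand of the gp130 receptor family, was at 0.48 in Chd8 siRNA and did not pass (SE 0.17, adjusted p = 0.207, edgeR with the block).

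**Figure D5:**
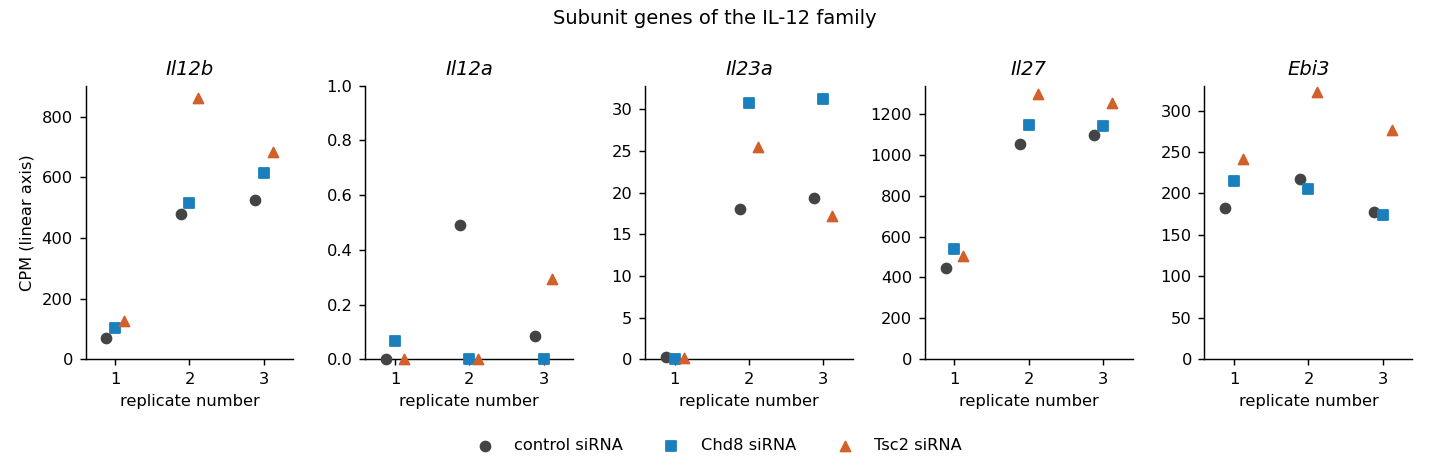
Normalized level (CPM, linear axis starting at 0, a separate scale per gene) of the IL-12 family subunit genes by replicate number, with 1 point per library and the same symbols for the siRNA groups as in the plot of all 10 genes. Il12b and Il23a are low at number 1 in every group, Il12a stays at or below 0.493 CPM, and Ebi3 is highest in the 3 Tsc2 siRNA libraries.

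Other genes of the pathways were read from lists by role. From each pathway list the gene with the lowest p in the fit without the block and every called gene are named, with values from the fit with the block where it is stated. The order of genes by p differed between the fits, and the other genes named here were chosen after their values were seen. Of 14 receptor genes tested, 0 were called in any comparison with or without the block, and 3 differed by replicate number, beside 17.3% of all genes. Tnfrsf1b, the inducible TNF receptor, lay between 2246 and 2780 CPM, whereas Il1r1, the signaling receptor of IL-1, was at most 0.615 CPM and Il27ra at most 0.293 CPM. Without the block, the lowest p values were those of Il18rap in Chd8 siRNA (5.47 ± 0.493 against 8.57 ± 2.86 CPM, SD, n = 3) and Il12rb1 in Tsc2 siRNA (0.953 ± 0.564 against 1.90 ± 1.36 CPM, SD, n = 3), and neither passed. Of 20 genes for processing, activation and binding, 0 were called in any comparison, and 8 differed by replicate number, beside the same 17.3% of all genes. Casp8, a caspase of death receptor and inflammasome signaling, was at 0.30 in Chd8 siRNA (SE 0.08, adjusted p = 0.0794, edgeR with the block), and Pycard, the adaptor of the inflammasome, at 0.53 in Tsc2 siRNA (SE 0.14, adjusted p = 0.134), and neither passed. With DESeq2 and the block both passed the FDR, under 1.5-fold (adjusted p = 0.00549 for Casp8 and 0.0376 for Pycard). Nlrp3, the sensor of the inflammasome that activates caspase-1, was at 1084, 1517 and 1897 CPM in control siRNA, and was higher by 0.70 (SE 0.09) and 1.01 (SE 0.09) on the log2 scale at numbers 2 and 3.

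Of 20 genes for mRNA decay and feedback, which limit cytokine responses, 11 were called by number beside 17.3% of all genes, and 9 were not. Of the 11, 7 were lower and 3 higher in both numbers 2 and 3 than in number 1. Zfp36, whose protein destabilizes Tnf mRNA, was at 1065, 528 and 545 CPM in control siRNA, and Socs3, an inhibitor of IL-6 signaling that IL-10 induces, at 1177, 624 and 515 CPM. Sbno2 and Bcl3, which act in the IL-10 response and on NF-kappaB, were at 764, 199 and 188 and at 202, 66.6 and 63.9 CPM. All 4 were thus higher at number 1, as was Il10. With the block, Dusp1, a phosphatase that limits MAP kinase signaling, was called higher in Tsc2 siRNA, at 495, 337 and 273 CPM against 388, 220 and 147 CPM (0.63, SE 0.11, adjusted p = 0.0169, edgeR). It was not called without the block. With it, 4 of the 9 fits that omitted a library lost the call, those without control siRNA replicates 2 or 3 or Tsc2 siRNA replicates 2 or 3. It was the 1 gene of this list called in any comparison. Ski was at −0.27 in Chd8 siRNA (SE 0.12, adjusted p = 0.380, edgeR with the block), and Tnfaip3, an inhibitor of NF-kappaB, at −0.20 (SE 0.08, adjusted p = 0.377) between the knockdowns and at 0.19 (SE 0.08, adjusted p = 0.398) in Tsc2 siRNA.

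Of 18 signal transducers, 0 were called by siRNA and 1, Smad3, by replicate number, beside 17.3% of all genes. Jak2, a kinase of cytokine receptors, was at 0.27 in Chd8 siRNA (SE 0.06, adjusted p = 0.0651, edgeR with the block, or 0.00322 with DESeq2 and the block), Myd88 at 0.17 in Tsc2 siRNA (SE 0.08, adjusted p = 0.459), and Tyk2 at 0.20 between the knockdowns (SE 0.09, adjusted p = 0.421). Of 17 other cytokine genes tested, 12 differed by replicate number, again beside 17.3% of all genes, 9 of them higher and 2 lower at both numbers 2 and 3, and Csf2, for GM-CSF, was at 0, 6.10 and 11.7 CPM in control siRNA. With the block, Ifnb1, for interferon beta, was called higher in Chd8 siRNA, at 13.6, 30.6 and 31.9 CPM against 6.75, 9.36 and 15.4 CPM (1.25, SE 0.24, adjusted p = 0.0216, edgeR). That call was lost in 4 of 9 fits that left out a library, those without control siRNA replicates 2 or 3 or Chd8 siRNA replicates 1 or 2. Csf3, for G-CSF, was called lower in Tsc2 siRNA, at 77.1, 52.7 and 86.5 CPM against 167, 96.4 and 169 CPM, and this call was kept in all 9. It was also called between the knockdowns (0.60, SE 0.09, adjusted p = 0.0157, edgeR with the block), at 137, 69.1 and 129 CPM in Chd8 siRNA, and that call was lost without Chd8 siRNA replicates 1 or 3 or Tsc2 siRNA replicates 1 or 3. None of these was called without the block.

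Some markers of other cells also differed by replicate number. Of 7 astrocyte markers tested, 6 were called by number, beside 17.3% of all genes, and 5 were higher at both numbers 2 and 3. The summed level of the 8 astrocyte markers averaged 13.4, 25.5 and 68.2 CPM over the libraries numbered 1, 2 and 3. Aqp4, the water channel of astrocyte endfeet, was at 0 in all 3 libraries numbered 1 and at 6.00 to 46.4 CPM in the other 6. The 6 fibroblast and mural cell markers averaged 10.1, 23.1 and 45.9 CPM in sum, and 3 of the 4 tested were called by number, all higher at numbers 2 and 3. Col1a1 was at 2.56, 12.8 and 44.0 CPM in control siRNA, and Rgs5, the 1 not called, differed from number 1 by −1.08 (SE 0.77) and −0.37 (SE 0.74) on the log2 scale. The microglia markers averaged 3323, 3183 and 2892 CPM, with 3 of 11 called by number, Itgam lower, Sall1 higher at numbers 2 and 3, and Cx3cr1 higher at number 2 and lower at number 3. Of 4 oligodendrocyte lineage markers tested, 4 were called by number, 1 higher and 1 lower at both numbers 2 and 3, and the summed level of that list averaged 25.4, 25.9 and 17.04 CPM. Of 4 neuron markers, 2 were called, both higher, and the sum averaged 3.74, 5.64 and 12.6 CPM. Of 3 endothelial markers, 1 was called, Pecam1, which was lower at numbers 2 and 3, and 0 of 2 monocyte, neutrophil and lymphocyte markers were called. Among the markers of other cells, Col1a1, a collagen chain made by fibroblasts, was the 1 gene called by siRNA with the block. It was at 1.98, 4.46 and 13.2 CPM in Chd8 siRNA, lower than in control siRNA at 3 of 3 numbers (−1.31 on the log2 scale, SE 0.25, adjusted p = 0.0216, edgeR with the block), and was not called without the block (adjusted p = 1.00). The part of other cell types in the differences between replicate numbers or siRNA groups was not tested.

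The genes whose levels were most alike over the 9 libraries, among 7820 genes with a mean of at least 5 CPM, were listed for each cytokine gene by Pearson's r of log2 CPM over 9 libraries, as a description. The 9 points share the replicate numbers, which set most of the spread. Tnf was followed by Cald1 (r = 0.995) and Tagln (r = 0.988), genes of contractile cells, which were at 51.9 and 29.6 CPM in control siRNA replicate 3 and at 3.02 and 0.452 CPM in replicate 1. Il1b was followed by Rel (r = 0.986), an NF-kappaB subunit, and Kpna4 (r = 0.986), and Il12b by Ccnd2 (r = 0.986) and Csf2 (r = 0.984). Il18 was followed by Arl1 (r = 0.989) and Cd40 (r = 0.987), a co-stimulatory receptor, and Il1a by Osgin2 (r = 0.994) and Vps54 (r = 0.990). Il6 was nearest to Gm13889 (r = 0.994) and Ankrd33b (r = 0.991), and Il27 to Zup1 (r = 0.989) and Cited2 (r = 0.988). Among the restraining genes, Il10 was nearest to Xbp1 (r = 0.970) and Tlnrd1 (r = 0.969), Il1rn to Stk25 (r = 0.977) and Smim3 (r = 0.962), and Tgfb1 to Ell (r = 0.984) and Gm45221 (r = 0.972).

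All 10 are protein-coding genes, and in GRCm38 Il12b lies at chr11:44400063-44414033 and Il1rn at chr2:24336853-24351494 on the plus strand, Il27 at chr7:126589010-126594941 on the minus strand, and Il10 at chr1:131019845-131024974 on the plus strand. Most of the 10 sums rested on 1 transcript. Il1a, Il10 and Il27 have 1 annotated transcript each, and 1 transcript held 99.98% of the counts of Tnf, 99.2% of Il12b, 98.1% of Il1b, 94.4% of Tgfb1 and 90.3% of Il6. Il1rn was divided between Il1rn-201 (60.4%), Il1rn-202 (32.4%) and Il1rn-204 (4.83%), with the rest on 3 others. Between libraries Il1rn-201 held 57.5% to 62.9%. Il18 was divided between Il18-204 (54.7%) and Il18-203 (43.5%), and Il18-204 held 48.1% to 63.9% in a library. Il1a, Il1b, Il18 and Il27 overlap genes on the opposite strand, and since it is not stated here whether the counting used the strand, reads from the overlaps cannot be told apart.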

How the data were processed

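RNA-seq was made from 9 libraries of mouse primary microglia, 3 per siRNA group, and groups were taken from the labels. The authors quantified transcripts with salmon 0.14.1 against mm10 and deposited estimated counts per Ensembl transcript. The annotation release is not given in the sources used here. Here, 139852 of 140948 transcripts were matched to GENCODE mouse release 21 (the unmatched 1096 held 0.27% of counts), summed per gene, and rounded to whole numbers. Genes that passed filterByExpr were fitted over all 9 libraries by the quasi-likelihood test of edgeR 4.0.16 in R 4.3.3 with TMM scaling, and called at a Benjamini-Hochberg FDR of 0.05 and 1.5-fold. The members and lists were chosen with earlier results of these data known. The fit was also run on counts simulated from the fit with the replicate block, which keep its differences between numbers. That simulation therefore cannot check whether the numbers pair the libraries. Exact permutation tests used log2 CPM with 0.5 added. Alternatives were DESeq2 1.42.0, limma 3.58.1, other scalings, filters and transcript choices, libraries left out, and the replicate number as a block. Deviations from the group means correlated at 0.244 to 0.522 in the 9 pairs of libraries with the same number and at −0.382 to 0.0366 in the 18 other pairs, so the numbers were taken to pair the libraries. This pairing comes from the data, as no source used here states it. Named genes were the 10 members, the gene with the lowest p without the block and any called gene of each pathway list, and the 2 genes most alike to each member. Other genes named were chosen after their values were seen. Sequences were RefSeq promoter windows in GRCm38.p6. Plots were drawn with matplotlib 3.10.9 in Python 3.11.15.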

Additional observations from a re-analysis of the deposited data

Results flagged for a closer look

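Il1rn was singled out because every Chd8 siRNA library lay above the control siRNA library of the same number and every Tsc2 siRNA library lay below it, that is 3 of 3 numbers above in Chd8 siRNA and 0 of 3 in Tsc2 siRNA. The difference between the knockdowns was 0.34 on the log2 scale in the edgeR fit with the replicate block (SE 0.06, adjusted p = 0.0291), which is 1.26-fold and under the 1.5-fold threshold. It did not pass without the block (0.31, SE 0.29, adjusted p = 1.00, edgeR), and passed the FDR in 3 of 9 fits with the block that left out a library. Both knockdowns were set against the same 3 control siRNA libraries.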

How the results depend on the processing

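With the replicate block, which pairs libraries of the same number, 86, 63 and 36 genes were called in Chd8 siRNA against control siRNA, Tsc2 siRNA against control siRNA and Chd8 siRNA against Tsc2 siRNA. These counts were 86, 66 and 35 with RLE size factors and the block, 141, 117 and 100 with DESeq2 and the block, and 108, 128 and 141 with the block and numbers 2 and 3 only, a setting chosen after seeing the data. Without the block, DESeq2 called 9, 5 and 5, and no count filter gave 2 in Chd8 siRNA and 1 in Tsc2 siRNA. The count of cytokine genes called in Tsc2 siRNA was 1, Il12b, in each of the 4 settings with the block over all libraries or numbers 2 and 3, and with all 9 libraries the block changed no other call on the 10 genes. Without Chd8 siRNA replicate 2, Il1a was called between the knockdowns with the block (0.64, adjusted p = 0.0452, edgeR) and not without it. With numbers 2 and 3 only, 4 of the 10 genes did not overlap in each comparison, beside 34.7%, 33.6% and 35.4% of all genes tested. With the block and numbers 2 and 3 only, Il1rn in Tsc2 siRNA (−0.29, adjusted p = 0.0201), Il1b in Tsc2 siRNA (0.26, adjusted p = 0.0467) and Il1b between the knockdowns (−0.26, adjusted p = 0.0495) also passed the FDR of edgeR, under 1.5-fold. The count of genes called by replicate number was 1660 without the control siRNA libraries, against 2810 with all 9 libraries. The cause of these changes was not tested.

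Values near 0 changed sign. In Chd8 siRNA, Tnf was at −0.0044 and Il18 at −0.017 with protein-coding transcripts only, Il18 was at −0.10 with numbers 2 and 3 only and −0.062 with the block too, and Il1a was at 0.24 with the block, 0.24 with limma-voom, 0.25 with the block and RLE size factors and 0.25 with the block and DESeq2. In Tsc2 siRNA with numbers 2 and 3 only, Tnf was at 0.014 and Tgfb1 at 0.070, and with the block too at 0.070 and 0.068. Il18 there was at 0.039 with the block, 0.043 with the block and RLE size factors, 0.043 with the block and DESeq2, 0.0023 with RLE size factors, 0.0018 with DESeq2, 0.075 with limma-voom and 0.11 with the most abundant transcript. Between the knockdowns, Tnf was at −0.024 with the block and numbers 2 and 3 only, and Il6 at 0.017 with the block, 0.024 with RLE size factors too and 0.024 with DESeq2 and the block.

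Leaving out each library, with and without the block, gave 0 to 107, 0 to 131 and 0 to 129 called genes, 0 to 1 called cytokine genes in Tsc2 siRNA and 0 to 1 between the knockdowns, and 0 to 3 of the 10 cytokine genes without overlap in each comparison, beside 14.5% to 24.1% of all genes tested over the same settings. In Chd8 siRNA, the log2 fold changes ran from −0.69 to 0.79 for Tnf, −0.55 to 0.69 for Il1a, −0.17 to 0.28 for Il1b, −0.76 to 0.10 for Il6, −0.48 to 0.24 for Il10, −0.29 to 0.66 for Il12b, −0.080 to 0.33 for Il1rn, −0.29 to 0.41 for Il18, −0.19 to 0.40 for Il27 and −0.37 to 0.0025 for Tgfb1. In Tsc2 siRNA, they ran from −0.69 to 0.73 for Tnf, −1.05 to 0.45 for Il1a, −0.10 to 0.50 for Il1b, −0.71 to 0.18 for Il6, −0.081 to 0.47 for Il10, 0.15 to 1.11 for Il12b, −0.48 to 0.038 for Il1rn, −0.36 to 0.40 for Il18, −0.079 to 0.56 for Il27 and −0.17 to 0.15 for Tgfb1. Between the knockdowns, they ran from −0.66 to 0.71 for Tnf, −0.28 to 1.04 for Il1a, −0.44 to 0.16 for Il1b, −0.50 to 0.38 for Il6, −0.68 to 0.0016 for Il10, −0.91 to 0.023 for Il12b, 0.091 to 0.61 for Il1rn, −0.17 to 0.36 for Il18, −0.44 to 0.17 for Il27 and −0.32 to −0.036 for Tgfb1.

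With 3 libraries per group, the standard errors of the 10 genes were 0.19 to 1.07 on the log2 scale without the block and 0.062 to 0.16 with it, which limits the size of difference that could be detected.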
